A study of Chlamydomonas reinhardtii with 8 samples.

Results

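LCI1, NAR1.2, CCP1, CCP2 and LCR1 are 5 genes of the low-CO2 response of the unicellular green alga Chlamydomonas reinhardtii, found by symbol among the 17737 genes of the deposited RNA sequencing table. LCI1 encodes a plasma membrane protein linked to inorganic carbon uptake, and NAR1.2, also known as LCIA, encodes an anion transporter of the chloroplast envelope. CCP1 and CCP2 encode closely related proteins of the mitochondrial carrier family, and LCR1 encodes a MYB-type transcription factor. Background shares and medians were taken over all tested genes of the table, these 5 included.

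When CO2 is scarce, this alga concentrates inorganic carbon around Rubisco. Transporters move bicarbonate across the plasma membrane and the chloroplast envelope, and carbonic anhydrases, which are zinc enzymes, interconvert bicarbonate and CO2. The low-CO2 genes depend on the regulator CCM1, also called CIA5, which binds zinc, and LCR1 acts below it on a subset that includes CAH1 and LCI1.

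All cultures were strain CC-4532, grown with acetate and continuous light, per the labels' protocols. The 8 conditions were an early and a late zinc-replete culture, a zinc-deficient culture after a second round without added zinc (0 h), and deficient cultures given 2.5 µM zinc and sampled at 1.5, 3 and 4.5 h and again at 12 h and 24 h. The design text names 4 biological replicates, but the table holds 1 value per condition, so nothing below is checked against replicates and no p-value is given. No condition was kept without zinc over the same hours, so zinc return and time in culture cannot be told apart. Which of the replete cultures came closest to the others in age or density is not stated.

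Levels are FPKM, the authors' count of fragments corrected for the length of the transcript and the size of the library, each with a pair of confidence bounds. A gene was called where its log2 ratio, taken after adding a pseudocount of 1 FPKM to each level, was at least 1 in size, the bounds of the conditions did not overlap, and its mean over the 8 conditions was at least 1 FPKM. This log2 scale understates the change of low genes. Of 17737 genes, 11498 passed the filter on the mean. All 5 genes passed it, with means from 6.38 FPKM for LCR1 to 64.1 FPKM for LCI1, and all their values had the status OK. Total FPKM was lowest at 0 h (720944) and highest in the early replete culture (886096). Sequencing depth is unknown. RNA came from whole cultures, so a level lower in all cells and one lost from part of them cannot be told apart.

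LCI1 (Cre03.g162800) spans 2885264 to 2887871 on chromosome 3 and NAR1.2 (Cre06.g309000) 8604782 to 8607670 on chromosome 6. CCP2 (Cre04.g222750) spans 2617297 to 2620361 and CCP1 (Cre04.g223300) 2690711 to 2693793, both on chromosome 4. LCR1 (g9922) spans 5235190 to 5239232 on chromosome 9. These are gene spans of the table, and no source used here names their genome build.

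LCI1 had the widest range of the 5 genes. Its level was 29.8 FPKM in early and 0.140 FPKM in late replete cells, 2.59 at 0 h, 98.8 at 1.5 h, 91.3 at 3 h, 192 at 4.5 h, 97.6 at 12 h and 0.336 FPKM at 24 h. The bounds at 4.5 h (150 to 235 FPKM) lay above those of every other condition, while the 1.5, 3 and 12 h values overlapped one another. The lowest levels, late replete (bounds 0 to 0.286 FPKM) and 24 h (0.0937 to 0.578 FPKM), also overlapped. At 4.5 h, 97.7% of all genes of the table had a lower FPKM than LCI1, and in late replete cells 16.4% did.

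NAR1.2 was highest at 1.5 h. It stood at 19.7 FPKM in early and 3.07 FPKM in late replete cells, then 49.1 at 0 h, 246 at 1.5 h, 59.7 at 3 h, 79.9 at 4.5 h, 32.0 at 12 h and 1.53 FPKM at 24 h. The 1.5 h bounds (202 to 290 FPKM) lay above all others, and the 0, 3 and 4.5 h values lay close together, with neighbours in that order overlapping. The 24 h bounds (upper bound 1.97 FPKM) lay just under those of late replete cells (lower bound 2.03 FPKM), so 24 h was the lowest condition.

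CCP1 was also highest at 1.5 h. Its level was 19.7 FPKM in early and 5.04 FPKM in late replete cells, 30.0 at 0 h, 155 at 1.5 h, 35.1 at 3 h, 65.8 at 4.5 h, 36.6 at 12 h and 5.34 FPKM at 24 h. The 4.5 h bounds (49.0 to 82.6 FPKM) stood apart both from the 1.5 h peak (126 to 184 FPKM) and from the 3 h value (28.0 to 42.1 FPKM). The 24 h and late replete values overlapped.

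CCP2 peaked with CCP1 but was lower than it by 12 h. CCP2 stood at 10.0 FPKM in early and 3.66 FPKM in late replete cells, 54.4 at 0 h, 204 at 1.5 h, 45.4 at 3 h, 56.0 at 4.5 h, 11.9 at 12 h and 4.72 FPKM at 24 h. The 0, 3 and 4.5 h levels, before and after the 1.5 h peak, lay close together, and neighbours in order of level overlapped. The 12 h level overlapped that of early replete cells.

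LCR1, the regulator, was the least variable of the 5 genes. It stood at 5.88 FPKM in early and 0.851 FPKM in late replete cells, 6.96 at 0 h, 14.7 at 1.5 h, 8.18 at 3 h, 8.01 at 4.5 h, 5.47 at 12 h and 1.00 FPKM at 24 h. The 1.5 h bounds (12.3 to 17.1 FPKM) lay above all others. Below them came 5 conditions whose neighbours overlapped, and then the 24 h and late replete values, which also overlapped. The highest level over the lowest was 17.3-fold for LCR1, 30.8-fold for CCP1, 55.8-fold for CCP2, 160-fold for NAR1.2 and 1375-fold for LCI1, whose lowest bound is 0, so that its fold is poorly determined.

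**Figure D1:**
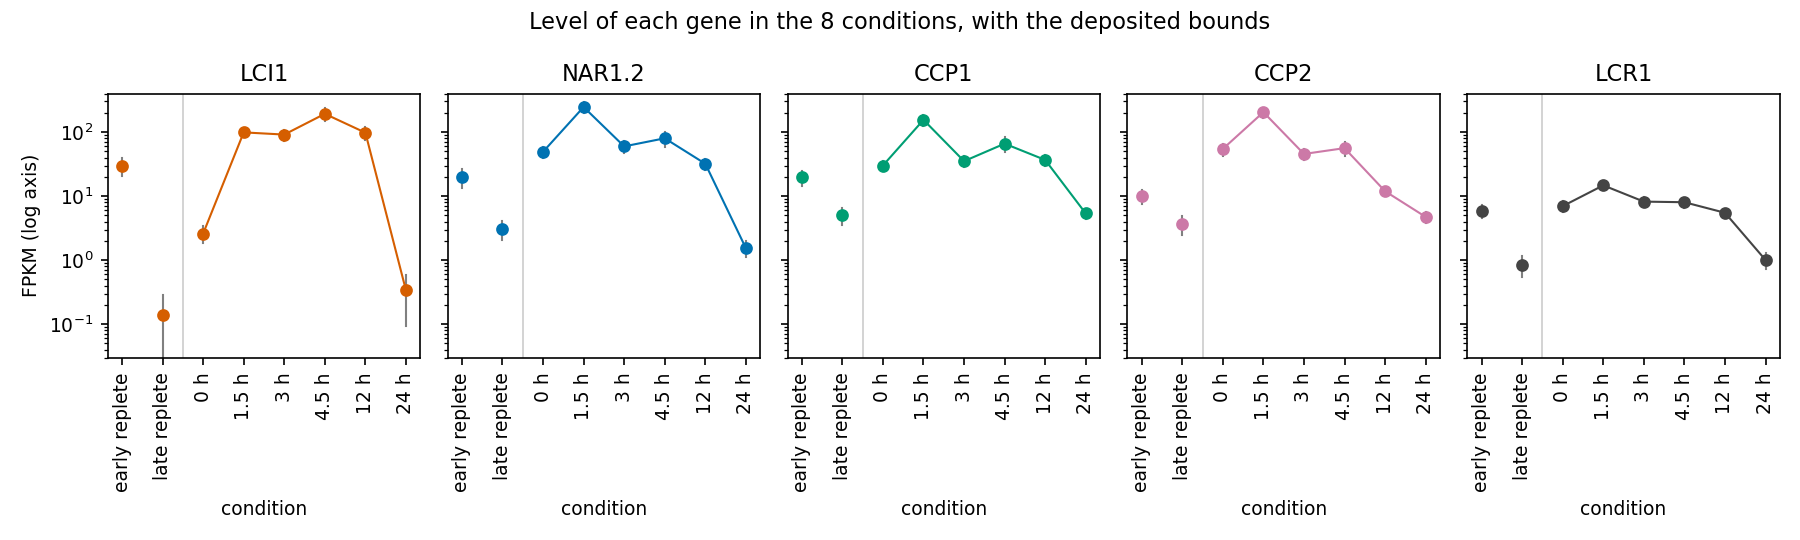
FPKM on a log axis for each of the 5 genes in the 8 conditions, replete cultures left of the grey line and hours after zinc addition right of it. Points are the deposited values, vertical lines the deposited bounds (the lower bound of 0 for LCI1 in late replete cells is cut at the axis). NAR1.2, CCP1, CCP2 and LCR1 are highest at 1.5 h and LCI1 at 4.5 h (192 FPKM).

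The order of the 5 genes differed between conditions. At 0 h CCP2 and NAR1.2 were highest, with overlapping bounds, and LCI1 was lowest at 2.59 FPKM, below LCR1. At 1.5 h NAR1.2, CCP2 and CCP1 led, each overlapping the next, above LCI1. At 3, 4.5 and 12 h LCI1 was the highest of the 5, apart from the next gene each time. In late replete cells and at 24 h LCI1 was again the lowest, apart from LCR1.

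In zinc deficiency the answer for these genes depended on the replete culture used. Against early replete cells CCP2 (log2 ratio 2.33) and NAR1.2 (1.27) were higher at 0 h and LCI1 was lower (-3.10). CCP1 (0.58) and LCR1 (0.21) were not called, and their bounds overlapped. Of all 11458 genes tested, 7.59% were called higher and 8.82% lower in that comparison. Against late replete cells all 5 were higher, where 7.48% of 11460 genes were and 7.64% were lower, with log2 ratios from 1.65 for LCI1 to 3.62 for NAR1.2. LCI1 was thus lower than early and higher than late replete cells, at 2.59 FPKM against 29.8 and 0.140. Its call against late cells was lost with a pseudocount of 5 FPKM and with a fold threshold of 4.

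The replete cultures themselves differed in all 5 genes. Each was lower in the late than in the early culture, with a median log2 ratio of -1.89, while 0.689% of 11465 genes were called lower and the median over all tested genes was -0.03. LCI1 (-4.76) had the second lowest log2 ratio of all tested genes, NAR1.2 (-2.35) the fifth lowest, LCR1 (-1.89) ranked 9, CCP1 (-1.78) ranked 10 and CCP2 (-1.24) ranked 28. The fold between the nearest bounds was 71.6 for LCI1, 3.86 for LCR1, 3.23 for NAR1.2, 2.20 for CCP1 and 1.56 for CCP2.

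Within 1.5 h of zinc return the 4 transporter genes rose. The log2 ratio to 0 h was 4.80 for LCI1, the highest of 11463 genes tested, 2.33 for CCP1, 2.30 for NAR1.2 and 1.89 for CCP2. LCR1 stood at 14.7 against 6.96 FPKM, with bounds apart, but its log2 ratio of 0.98 lay just under the threshold and it was called with a pseudocount of 0.1 FPKM (1.07). In this comparison 12.0% of all tested genes were called higher, and their overall median was 0.02. All 5 genes were higher at 1.5 h than in either replete culture, with log2 ratios from 1.19 (LCR1) to 4.22 (CCP2) against early and from 3.08 (LCR1) to 6.45 (LCI1) against late cells. The shares of all genes called higher there were 9.25% and 14.4%.

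From 1.5 to 3 h the genes parted. CCP2 (log2 ratio -2.15), CCP1 (-2.11) and NAR1.2 (-2.02) fell, ranking 11, 12 and 13 from the lowest of 11476 genes tested, of which 0.715% were called lower. LCI1 was not called, at 91.3 against 98.8 FPKM with overlapping bounds. LCR1 was not called either (log2 ratio -0.77), although its bounds at 3 h (6.74 to 9.63 FPKM) lay under those at 1.5 h. At 3 h LCI1 was thus the only one of the 5 called against 0 h, at a log2 ratio of 4.68 and again the highest of all genes tested, 10.4% of which were called higher. The other 4 genes overlapped their 0 h bounds.

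A second, smaller step followed at 4.5 h. LCI1 rose from 91.3 to 192 FPKM (log2 ratio 1.07), where 0.253% of 11481 genes were called higher between 3 and 4.5 h. CCP1 went from 35.1 to 65.8 FPKM with bounds apart but a log2 ratio of 0.89, under the threshold. NAR1.2 (0.41), CCP2 (0.30) and LCR1 (-0.03) overlapped their 3 h bounds. Against 0 h, LCI1 (5.75, the highest of all genes tested) and CCP1 (1.11) were higher at 4.5 h, as were 10.2% of all tested genes. The call of CCP1 ended when FPKM was rescaled (0.97 with median-of-ratios factors, 0.87 at equal totals).

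Between 4.5 and 12 h CCP2 and NAR1.2 fell. CCP2 went from 56.0 to 11.9 FPKM (log2 ratio -2.15, the fifth lowest of 11470 genes) and NAR1.2 from 79.9 to 32.0 FPKM (-1.29), in a comparison where 1.27% of genes were called lower. LCI1 (-0.97), CCP1 (-0.83) and LCR1 (-0.48) had bounds apart but log2 ratios under the threshold. Against 0 h at 12 h, LCI1 was still higher (4.78, the fourth highest of 11458 genes) and CCP2 was lower (-2.10). CCP1, NAR1.2 and LCR1 were not called. The bounds of NAR1.2 lay narrowly apart, lower at 12 h (log2 ratio -0.60), and those of CCP1 and LCR1 overlapped. The background was 7.25% higher and 6.31% lower.

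Between 12 and 24 h all 5 genes fell, while 0.454% of 11464 genes were called lower. LCI1 went from 97.6 to 0.336 FPKM (log2 ratio -6.21, the second lowest of all genes tested), NAR1.2 from 32.0 to 1.53 FPKM (-3.70, the third lowest) and CCP1 from 36.6 to 5.34 FPKM (-2.57). LCR1 reached 1.00 FPKM (-1.69) and CCP2 4.72 FPKM (-1.17). At 24 h all 5 were below their 0 h level, with log2 ratios from -4.30 for NAR1.2 to -1.43 for LCI1. Of all genes 6.92% were called lower and 8.49% higher at 24 h than at 0 h. Against the late replete culture 0 of 5 were called, by a description with no test, and only the bounds of NAR1.2 lay apart (log2 ratio -0.68). In that comparison 0.602% of all genes were called higher and 0.794% lower. Against the early culture LCI1, NAR1.2, CCP1 and LCR1 were lower at 24 h, where 0.445% of genes were, and CCP2 was not called (-0.95).

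**Figure D2:**
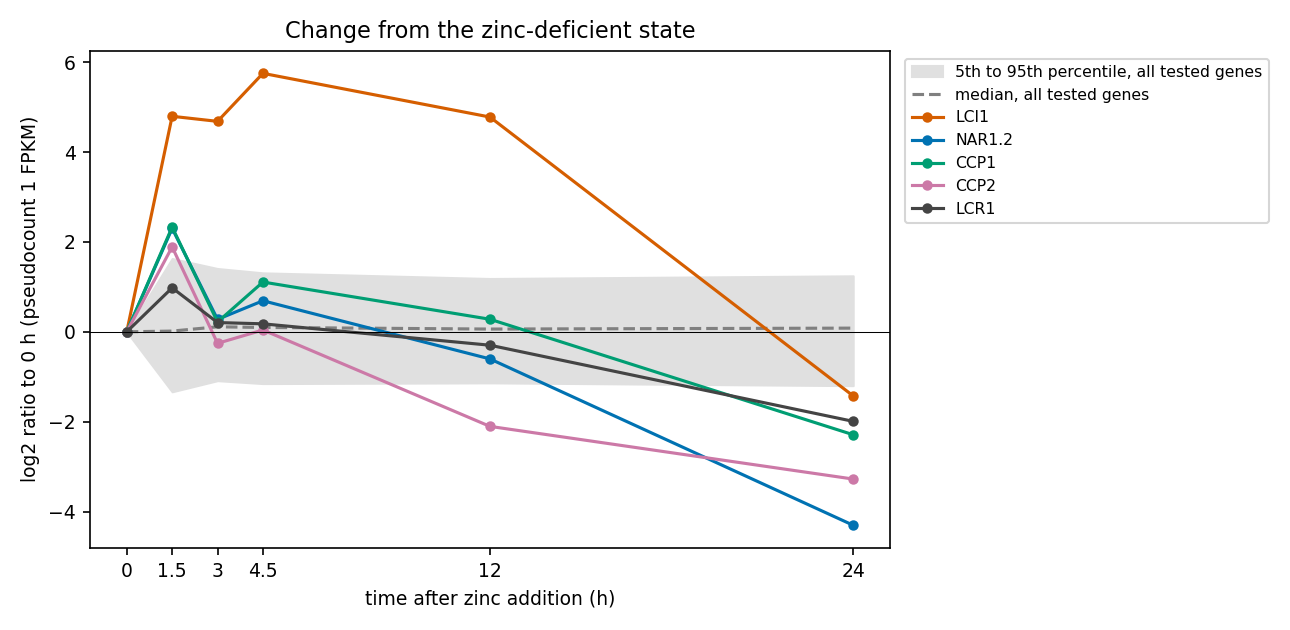
Log2 ratio of each gene to its own 0 h value (pseudocount 1 FPKM) against hours after zinc addition. The grey band holds the 5th to 95th percentile of all tested genes at each time and the dashed line their median. LCI1 stays above the band from 1.5 to 12 h, reaching 5.75 at 4.5 h, NAR1.2, CCP1 and CCP2 leave it upward at 1.5 h and lie inside it at 3 h, and all 5 genes lie under it at 24 h.

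The closely related genes CCP1 and CCP2 did not keep a fixed proportion. CCP2 over CCP1 was 0.508 in early and 0.727 in late replete cells, 1.82 at 0 h, 1.32 at 1.5 h, 1.296 at 3 h, 0.852 at 4.5 h, 0.325 at 12 h and 0.885 at 24 h. The bounds put the ratio above 1 at 0 h (up to 2.71) and below 1 at 12 h (0.227 to 0.470) and in early replete cells (0.303 to 0.863). In the other 5 conditions the bounds of both genes overlapped. How reads shared by these similar genes were assigned is not given in the sources used here, so the separate levels are uncertain.

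**Figure D3:**
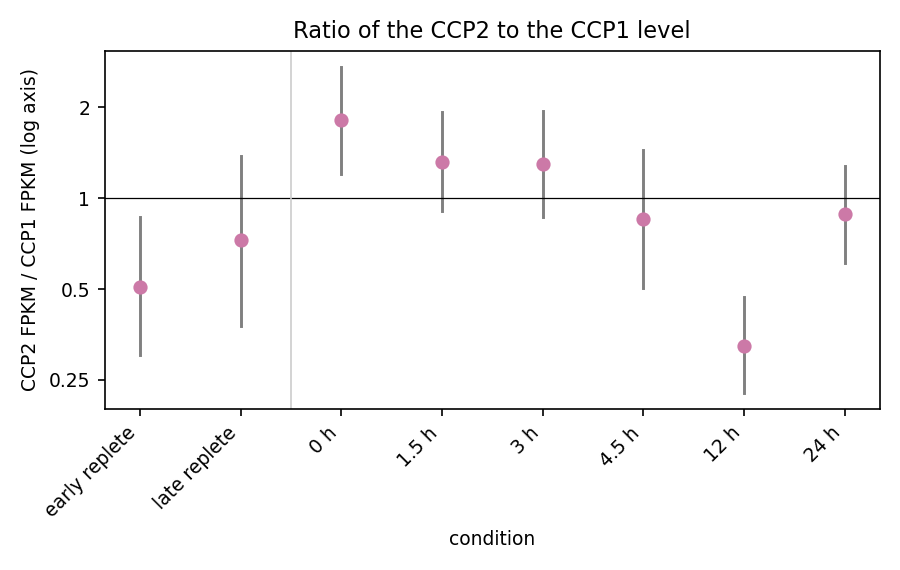
Ratio of the CCP2 to the CCP1 FPKM on a log axis in the 8 conditions. Points are ratios of the deposited values, and vertical lines run from the lowest to the highest ratio that the bounds of both genes allow. The ratio is highest at 0 h (1.82) and lowest at 12 h (0.325).

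CCP2 and CCP1 lie at the ends of a stretch of 76.5 kb on chromosome 4 that also holds CAH1 and CAH2, which encode periplasmic carbonic anhydrases, and LCID and LCIE, which encode relatives of the plastid protein LCIB. The LCID span starts 91 bases after that of CCP2, and 128 bases separate the spans of LCIE and CCP1. Of the 12 genes in the stretch, 9 passed the filter on the mean. CCP1 and CCP2, which define the stretch, were higher at 1.5 h than at 0 h. Of the 7 tested genes between them 4 were higher (LCID, CAH1, CAH2 and the unnamed Cre04.g222950) and 0 lower. Of all tested genes 12.0% were higher and 9.24% lower. The stretch was chosen after values were seen, so these counts are a description and support nothing about the region. LCID went from 4.09 to 15.7 FPKM at 1.5 h and stood at 3.29 FPKM at 3 h, so it was highest at 1.5 h as its neighbour CCP2 was, at a lower level. LCIE, below the filter and so not tested, went from 0.407 to 1.95 and then to 0.282 FPKM. Between 12 and 24 h CAH1 (log2 ratio -6.37), CCP1 and CCP2 were the 3 genes of the stretch called lower, as were 0.454% of all genes. The same 3 were called lower in late than in early replete cells, as were 0.689% of all genes. LCID was not called in either of these comparisons (-0.46 and -0.45), nor was CAH2 (-0.54 and -0.43). The 24 h bounds of LCID and CAH2 still lay under their 12 h bounds, with CAH2 going from 31.3 to 21.3 FPKM.

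**Figure D4:**
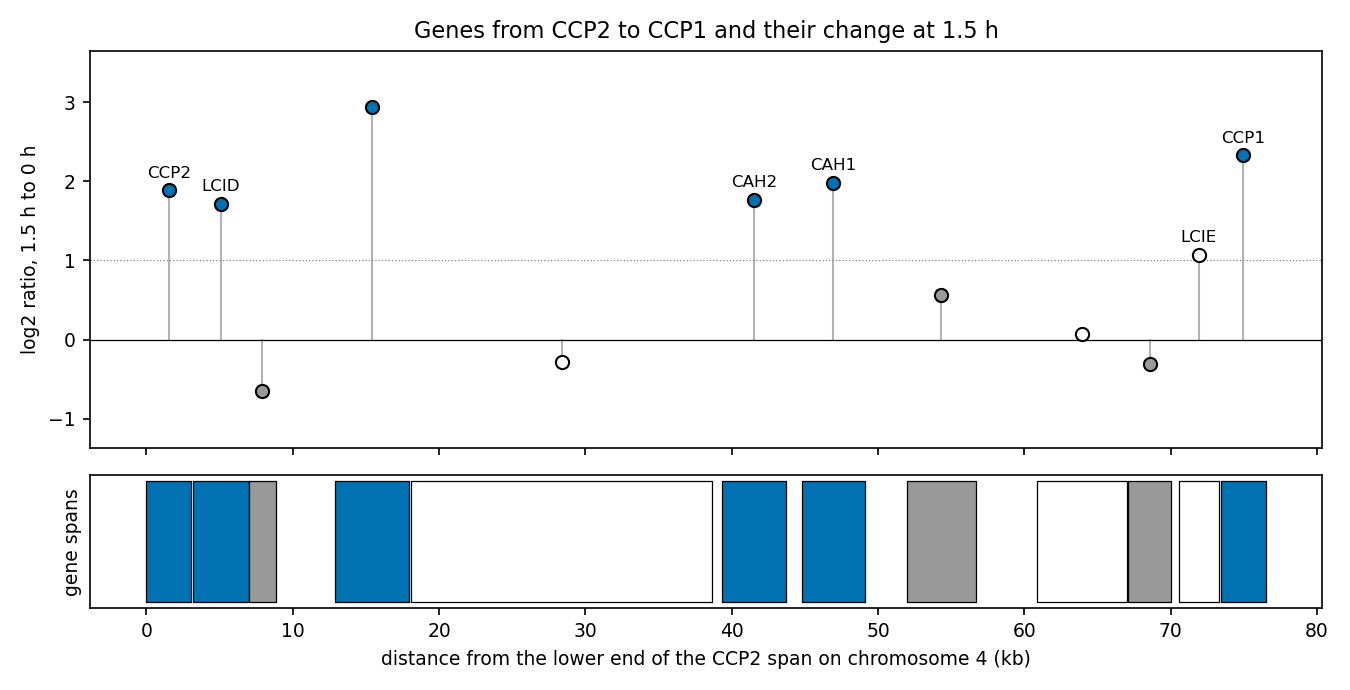
Log2 ratio of 1.5 h to 0 h (upper panel) for the genes from CCP2 to CCP1, and their spans (lower panel), against distance in kb from the lower end of the CCP2 span. Blue marks the 6 genes called higher, as were 12.0% of all tested genes. Grey marks genes tested and not called, white genes below the filter on mean FPKM. Named genes are labelled, and the dotted line is the threshold of 1.

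CAH1, the gene of the periplasmic carbonic anhydrase that LCR1 is known to act on, had the pattern most like that of LCI1 (Pearson r 0.94 of log2(FPKM + 1) over 8 conditions, the highest of 5202 genes outside the 5). CAH1 stood at 548 FPKM in early and 8.10 FPKM in late replete cells, 286 at 0 h, 1135 at 1.5 h, 1224 at 3 h, 1688 at 4.5 h, 1017 at 12 h and 11.3 FPKM at 24 h. Like LCI1 it was highest at 4.5 h and lowest in late replete cells, though its 0 h level was much nearer to its peak. Unlike those of LCI1, the CAH1 bounds at 4.5 h (1214 to 2163 FPKM) overlapped those at 1.5, 3 and 12 h. The late replete and 24 h bounds of CAH1 also overlapped. The next genes with a symbol were ZNJ1 (r 0.87) and SRX1, a sulfiredoxin (r 0.85). LCI6, another gene LCR1 is known to act on, stayed between 0.239 and 0.640 FPKM and below the filter.

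For LCR1 itself the genes with a symbol most like it were HEP1 (r 0.94), CAH1 (r 0.935) and AOX2, an alternative oxidase (r 0.91). Among genes with a symbol, NAR1.2 was most like LCI23 (r 0.95), CGL28 (r 0.94) and HEP1 (r 0.93). CCP1 was most like CAH5, a mitochondrial carbonic anhydrase (r 0.94), LCI23 (r 0.92) and HEP1 (r 0.91), and CCP2 was most like LCI23 (r 0.9973), LCI31 (r 0.98) and DNJ15 (r 0.97). LCI23 went from 14.6 FPKM at 0 h to 54.8 at 1.5 h, 10.4 at 3 h and 0.0511 FPKM at 24 h. Genes without a symbol ranked above the first named gene for NAR1.2, CCP1 and LCR1. Patterns with r of at least 0.9 were found in 2 genes for LCI1 and in 246 for CCP2, of 5202, so a high r was far less selective for CCP2. Among the 5 genes r ran from 0.63 (LCI1 with CCP2) to 0.98 (NAR1.2 with CCP1). These values rest on 8 points that share 1 table and, for 6 of them, 1 time course, and describe likeness of shape alone.

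Other genes named for their low-CO2 response did not move as a block. The 50 symbols sought matched 29 genes, 26 of them past the filter on the mean. Of these 26, 9 were higher and 5 lower at 1.5 h against 0 h, with a median log2 ratio of 0.38 against 0.02 over all genes, 12.0% of which were called higher and 9.24% lower. CAH5 (26.5 to 152 FPKM), CAH1, LCI23 and LCID led the higher ones, and LCI31 (1.06) lost its call with either rescaling (0.97 and 0.95). LCI33 (36.2 to 8.92 FPKM) and LCI30 (423 to 173 FPKM) were among the lower ones. Their highest condition was 1.5 h in 10 of 26 (38.5%), against 26.3% of all genes, and in 4 of the 5 genes described here.

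Genes of mitochondrial carbonic anhydrases fell from 1.5 to 3 h, as NAR1.2, CCP1 and CCP2 did, and then rose by 4.5 h, a step at which LCI1 alone of the 5 genes was called. CAH4 went from 198 to 29.1 and on to 88.6 FPKM at 1.5, 3 and 4.5 h, and CAH5 from 152 to 22.9 and 67.6 FPKM, and both were called at each step. LCIB and LCIC, which encode the plastid complex that recaptures leaked CO2, differed from these genes in replete and deficient cells. LCIB stood at 438 and 449 FPKM in early and late replete cells and 218 FPKM at 0 h, and LCIC at 263, 265 and 122 FPKM, so both were lower in deficiency against either culture (as were 8.82% and 7.64% of all genes) and showed no call between the cultures. LCIB lay at the threshold (log2 ratio -1.01 against early and -1.04 against late cells) and was called against neither with median-of-ratios factors (-0.93 and -0.99). At equal totals LCIB (-0.71) and LCIC (-0.81) were not called against early cells. After zinc return LCIC was highest at 1.5 h (391 FPKM). It was called higher there than at 0 h (log2 ratio 1.68), as were 12.0% of all genes. At 3 h LCIC stood at 243 FPKM, with bounds under those at 1.5 h but a log2 ratio (-0.68) under the threshold. LCIB was not called at 1.5 h against 0 h (0.89) and was highest at 12 h (665 FPKM). Between 12 and 24 h 5 of the 26 were lower, namely CAH1, CAH5, CAH4, LCI23 and LCIB, and 0 were higher, against 0.454% and 0.209% of all genes. In late against early replete cells 3 were lower (CAH1, CAH5 and LCI23) and 0 higher, where 0.689% and 0.741% of all genes were.

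**Figure D5:**
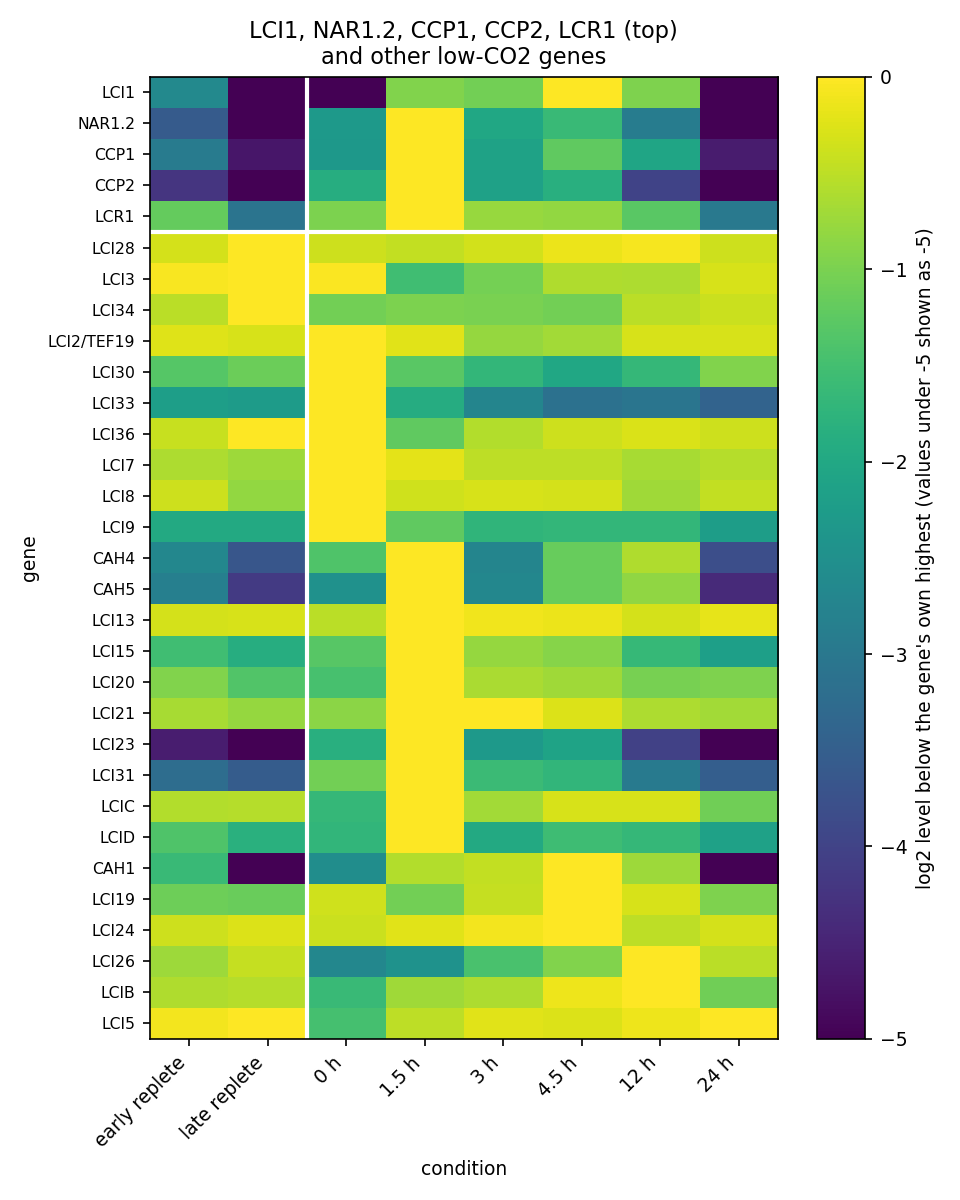
Level of LCI1, NAR1.2, CCP1, CCP2 and LCR1 (above the white line) and of 26 other low-CO2 genes past the filter, in the 8 conditions, as log2(FPKM + 1) below each gene's own highest condition. Yellow is the highest condition and values under -5 are drawn as -5. CAH4, CAH5, LCI23 and LCI31 share the peak at 1.5 h, CAH1 that at 4.5 h, and LCI5 stays near its highest level in both replete cultures. LCIB stands at 438 and 449 FPKM in the early and late replete cultures, under its 12 h level (665 FPKM) but with overlapping bounds.

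Relatives of NAR1.2 and genes with the opposite CO2 response were also measured. Of 3 tested NAR1 family members, formate and nitrite transporter relatives, 0 were called at 1.5 h against 0 h, where 12.0% of all genes were higher and 9.24% lower, so this count is no result about the family. NAR1.3 (log2 ratio -0.96) was called lower with either rescaling (-1.04 and -1.07). NAR1.4 was higher at 0 h (22.9 FPKM) than in the early (10.9) and late (10.1 FPKM) replete cultures. So were 7.59% and 7.48% of all genes, and the log2 ratio of NAR1.4 against early cells (1.00) lay at the threshold. NAR1.5 was lower at 0 h (4.64 FPKM) than in both cultures (21.5 and 23.5 FPKM), as were 8.82% and 7.64% of all genes. NAR1.5 reached 30.0 FPKM at 24 h, the time at which NAR1.2 was lowest. All 3 tested genes known for higher expression in high CO2 (FEA1, CAH2 and RHP1, which encodes a Rhesus-type channel protein) were lower at 0 h than in the early and the late replete culture, as were 8.82% and 7.64% of all genes. They were higher than at 0 h at each of the 5 later times. The shares of all genes called higher were 12.0% at 1.5 h, 10.4% at 3 h, 10.2% at 4.5 h, 7.25% at 12 h and 8.49% at 24 h. RHP1 went from 0.566 to 9.84 FPKM by 1.5 h, so a gene of this group rose in the same hours as NAR1.2 and CCP1. At 24 h FEA1, CAH2 and RHP1 remained above 0 h (median log2 ratio 3.14), where the 5 low-CO2 genes were below it (median -2.29) and the median of all tested genes was 0.08.

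Photorespiration genes encode enzymes that salvage the product of Rubisco's reaction with oxygen. At 1.5 h against 0 h, 2 of 13 were higher (SHMT3 and AGT1) and 2 lower (SGA1 and HPR1), where 12.0% and 9.24% of all genes were. Their median log2 ratio was -0.06, and AGT1 (1.04) was no longer called with either rescaling (0.95 and 0.93). Between 12 and 24 h 0 of 13 were called, where 0.209% of all genes were higher and 0.454% lower. Of the 2 mitochondrial carriers matched, the adenine nucleotide carriers ANT1 and ANT2, 0 were called at 1.5 h. With so few genes, these counts set neither list apart from the background. The symbols CCM1 and CIA5 matched 0 entries, and this regulator was not analysed here.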

How the data were processed

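Values were FPKM with confidence bounds, deposited by the authors as 1 value per gene and condition, per the file headers. The submitters' processing notes name TopHat2 and Cuffdiff. No source used here states a version of either, a genome build, the level of the bounds or how replicates entered the values. Column names matched the titles of all 8 conditions, with 0 value columns left over.

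The 5 genes, the other lists and the comparisons were chosen with earlier results of these data known. Calls, in 16 comparisons over all genes, followed the rule stated in the report and have no replicate check. The rule was run on simulated data in which large changes were planted in genes that were not low at 0 h. That run does not bear on calls near the threshold, on changes of low genes or on variation between cultures. Genes whose status was not OK in a condition were left out of its comparisons. The resupply comparisons share the 0 h value. The text names the 5 genes, up to 4 called members per other list and comparison, a fixed set that includes CAH1, LCIB to LCIE and LCI6, and, for each of the 5, the 3 genes with a symbol most like it by Pearson r (range of at least 1 log2 unit). Genes between CCP2 and CCP1, CAH4 and CAH5 at 3 h, and the ANT and LCI5 mentions were added after values were seen. The fold between nearest bounds and the ratios of 2 genes use no pseudocount. Coordinates were converted to count from 1. A reference gene table matched 4 of the 5 identifiers and held no sequence, so no sequence is shown. Python 3.11.15, numpy 2.4.6, pandas 2.3.3 and matplotlib 3.10.9 were used. The alternatives were other pseudocounts, filters, fold thresholds and scalings, and calls without the bounds.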

Additional observations from a re-analysis of the deposited data

How the results depend on the processing

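Of 640 log2 ratios of the 5 genes recomputed under 8 alternatives in 16 comparisons, 610 kept their side of the call, 28 lost it, 2 gained it and 0 called values turned direction. A mean of at least 5 FPKM, no filter, and calls without the bounds changed no call of the 5 genes. A fold threshold of 4 left 2 of 5 genes lower in late against early replete cells. Against 0 h it left 1 (of 2) called at 4.5 h and 3 of 5 at 24 h, and ended the call of CCP2 at 1.5 h (log2 ratio 1.89). It left 0 (of 1) at 4.5 against 3 h, 1 (of 2) at 12 against 4.5 h and 3 of 5 at 24 against 12 h. Against early replete cells it left 3 of 5 at 1.5 h and 2 (of 4) at 24 h. At 0 h it ended the calls of NAR1.2 against early (1.27) and of LCI1 against late cells (1.65). A pseudocount of 5 FPKM left 3 of 5 in late against early replete cells, at 24 h against 0 h and at 24 against 12 h. It also ended the call of LCI1 at 0 h against late cells and those of LCR1 at 1.5 h and 24 h against early cells. Either rescaling left 1 (of 2) at 4.5 h against 0 h, LCI1. With a pseudocount of 0.1 FPKM, LCR1 was called at 1.5 h against 0 h and CCP2 (-1.07) at 24 h against early replete cells. Rescaling to equal totals moved the median of all genes by up to 0.23 (log2, 0 h against early cells). It moved the background split of higher and lower genes from 870 and 1011 to 1318 and 624 there, from 85 and 79 to 172 and 28 in late against early cells, from 1188 and 665 to 759 and 1065 at 3 h, from 1171 and 747 to 741 and 1044 at 4.5 h, and from 973 and 793 to 766 and 1025 at 24 h, each against 0 h. For 3 against 1.5 h it went from 494 and 82 to 335 and 185, for 4.5 against 3 h from 29 and 11 to 40 and 8, for 12 against 4.5 h from 200 and 146 to 328 and 79, for 1.5 h against early cells from 1060 and 1204 to 1416 and 955, and for 24 h against late cells from 69 and 91 to 42 and 117. Median-of-ratios factors gave 922 and 854 at 3 h, 885 and 911 at 4.5 h and 238 and 104 for 12 against 4.5 h. The cause of these shifts was not tested. Low levels limit LCI1, whose bounds in late replete cells ran from 0 to 0.286 FPKM around a value of 0.140 FPKM. The mean half-width of these bounds was 102% of that value. No paired analysis was possible because the table holds 1 value per condition.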
